A study of Mus musculus with 5 samples.

Results

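Oxidative phosphorylation is carried out by 5 protein complexes of the inner mitochondrial membrane, and the nuclear genes for their subunits were followed here in mouse tumours and normal pancreas. The members were the protein-coding genes of the deposited tables whose symbols belong to the subunit families Ndufa, Ndufb, Ndufc, Ndufs and Ndufv, Sdha to Sdhd, Uqcr, Cyc1, Cox4 to Cox8 and Atp5. This name rule, which used no measured value, gave 95 rows with 94 symbols out of 55573 rows. Complex I had 36 of them, complex II 4, complex III 9, complex IV 20 and complex V 18, and 8 were Ndufaf assembly factors, which build complex I but are not part of it. Ndufa4 and Ndufa4l2 were placed in complex IV, where the Ndufa4 protein is found.

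Complex I (NADH dehydrogenase) and complex II (succinate dehydrogenase, also an enzyme of the citric acid cycle) feed electrons into coenzyme Q. Complex III passes them through cytochrome c to complex IV (cytochrome c oxidase), which reduces oxygen, and complex V (ATP synthase) uses the proton gradient that complexes I, III and IV build. Complexes I, III, IV and V combine nuclear subunits with subunits encoded by mitochondrial DNA, whereas complex II is encoded by nuclear genes alone. The acinar cells that form the bulk of normal pancreas spend much of their energy on the synthesis and secretion of digestive enzymes.

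Total RNA of 3 tumours from mice of genotype Th-Cre:MYC was compared with that of 2 normal pancreases from wild-type littermates. In the tumour mice a Cre recombinase driven by the tyrosine hydroxylase gene, which marks catecholamine-producing cells, removes a stop cassette in front of a MYC transgene driven by the CAG promoter. The series title calls the animals a neuroblastoma model and the design text calls the tumours pancreatic. No age is stated, the normal organ alone is described as perfused with an RNase inhibitor before removal, and the titles of tumours 1 and 2 share the number 86, whose meaning is not stated. Since no label says that the libraries came from separate animals, p-values measure only the spread between these samples, which may be partly technical.

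The libraries differed widely in composition. Totals were 15074489, 12601496 and 6611967 estimated counts in tumours 1, 2 and 3, against 48848987 and 51669489 in normal pancreas 1 and 2. Genes of a list of acinar markers took 0.0141% to 0.547% of the counts in tumours, against 88.7% and 89.3% in normal pancreas, and RNAs of the class misc_RNA took 22.0% to 25.3%, against 0.00116% and 0.000319%. Under the TMM scaling described below, 40 of 42 acinar markers fell, where 27.8% of all genes tested fell. Of 14 endocrine markers 12 rose, where 39.2% of all genes rose. Tissue composition therefore moved with the groups, its part in the results below was not tested, and in such bulk samples fewer cells of a type and less RNA per cell cannot be told apart. For this reason each result is given under more than one scaling, and ratios among the members, which no library scaling can change, are given beside them. The numbers that open the column headers also fell into separate ranges for tumours and normal pancreas, and their meaning is not stated. Any difference in library preparation or sequencing run would therefore follow the groups. It cannot be told apart from tissue here, by any scaling or by the ratios, and its part was not tested.

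Together the members held a larger share of all counts in tumours but a smaller share of the counts that were not acinar. Their share of all estimated counts was 0.512%, 0.666% and 0.575% in tumours 1, 2 and 3, against 0.151% and 0.133% in normal pancreas, and the groups did not overlap. As a share of TPM, which corrects for gene length and sums to the same total in every library, the values lay closer, at 0.316%, 0.386% and 0.306% in tumours, against 0.296% and 0.256% in normal pancreas. Among protein-coding counts outside the acinar markers and the mitochondrial genome, the order turned, with 0.762%, 1.04% and 0.955% in tumours, against 1.53% and 1.41% in normal pancreas. The members drew 38040 to 83928 counts per library in tumours and 73505 and 68599 in normal pancreas.

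**Figure D1:**
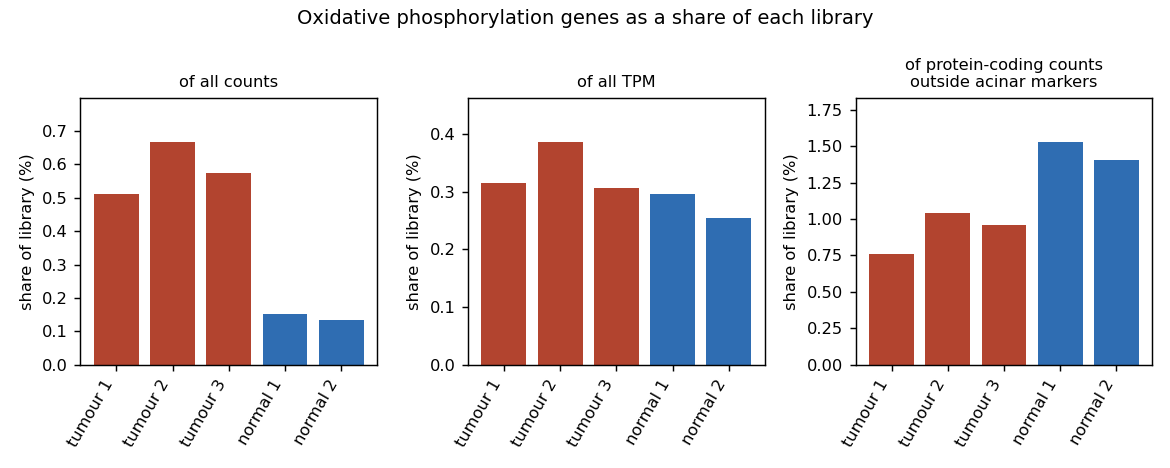
Share of each library taken by the 95 oxidative phosphorylation genes (vertical axes, percent), as a share of all estimated counts, of all TPM, and of protein-coding counts outside the acinar markers and the mitochondrial genome. Each bar is a library. Tumours stood above normal pancreas in the left panel, at 0.512% to 0.666% against 0.133% and 0.151%, and below it in the right panel, at 0.762% to 1.04% against 1.41% and 1.53%.

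Gene by gene, most members fell in tumours when libraries were scaled with TMM, a factor that balances the bulk of genes between libraries. In edgeR's quasi-likelihood test on the estimated counts (Benjamini-Hochberg adjusted p under 0.05 over 16810 genes), 70 of 88 tested members fell, where 27.8% of all genes tested fell. The 2 that rose, where 39.2% of all genes rose, were Cox4i2 and Ndufa4l2. The other 16 did not pass the test, and 7 members had too few counts to be tested. The median log2 fold change of the tested members was -1.20, beside 0.38 for all genes tested. In 80 of the 88, every tumour lay below both normal libraries in CPM, which takes the TMM factor into the library size, and in 2 every tumour lay above. How many of all genes were separated in this way was not counted, so these 2 numbers are a description.

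The sign of these changes depended on the scaling, whereas their place among all genes did not, since a scaling factor moves every gene of a library alike. With total counts alone, all 88 tested members were higher in tumours, where 93.3% of all genes were and 2.37% were lower, with a median of 1.97 beside 3.55 for all genes tested. The distance between the 2 medians was -1.58 under TMM and -1.58 under total counts. In both scalings 85 of the 88 members lay below the median of all genes. These transcripts are short, with a median effective length of 512 bases, against 2346 bases for protein-coding genes tested. With the trend of fold change on length removed, the distance was -0.72 and 71 members lay below the median. In limma on log2(TPM + 1) it was -0.39, with 60 below, but on log2(TPM + 0.1) it was -1.15, with 82 below. The distance in TPM thus depended on the value added before the logarithm. By counts of calls, 8 members were higher and 51 lower with the length trend removed, where 35.3% and 29.2% of all genes were. In limma on log2(TPM + 1), 34 were higher and 9 lower, where 63.4% and 6.98% of all genes were. Scaled on protein-coding counts outside the acinar markers, 4 were higher and 54 lower, where 48.7% and 18.9% of all genes were.

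**Figure D2:**
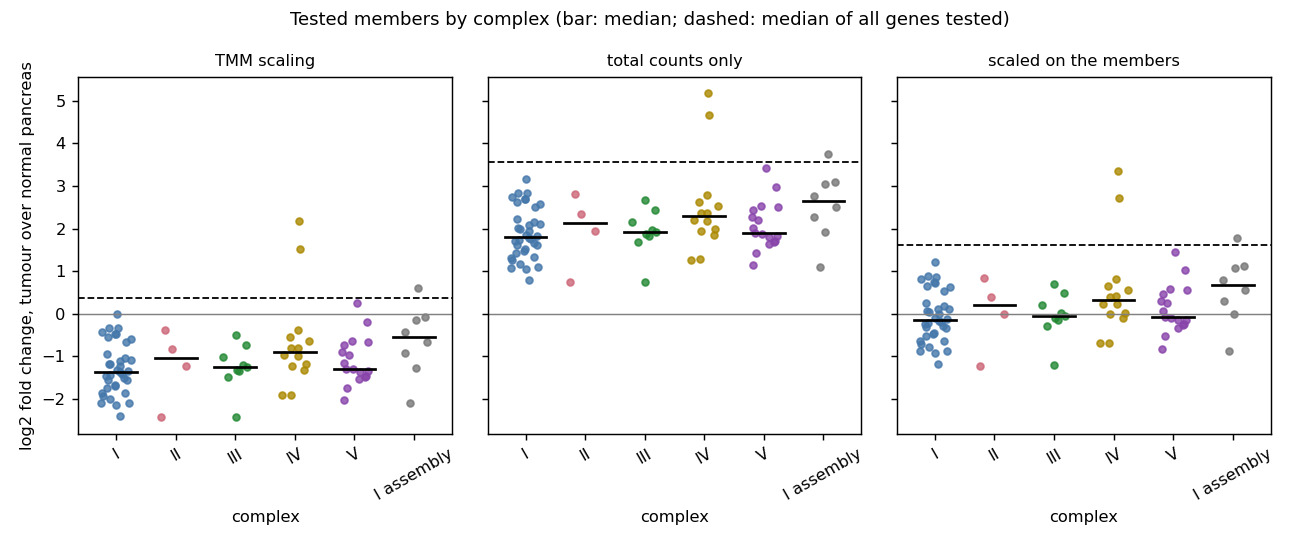
Log2 fold change, tumour over normal pancreas (vertical axis), of each tested member by complex (horizontal axis) under TMM scaling, total counts only, and scaling on the members themselves. Points are genes, bars are the median of each complex and dashed lines the median of all genes tested. The medians of all members are -1.20 under TMM, 1.97 under total counts and 0.015 when scaled on the members, and lie below the dashed line in each panel.

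Under TMM scaling, 31 of 36 subunits of complex I fell (median log2 fold change -1.37), 3 of 4 of complex II (-1.03), 8 of 9 of complex III (-1.26), 10 of 14 of complex IV (-0.89) and 15 of 17 of complex V (-1.29). None of complexes I, II, III and V rose, whereas under total counts all of them were higher. Of the 8 assembly factors 3 fell under TMM, with a median of -0.54. Of all genes tested, 27.8% fell and 39.2% rose under TMM, and 93.3% were higher under total counts.

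The mixture of complexes within the module can be compared without any library scaling, as the share of the summed subunit TPM that each complex held. Complex I held 28.1%, 26.6% and 28.0% in tumours 1, 2 and 3, against 31.8% and 31.7% in normal pancreas. Complex V held 33.9%, 35.2% and 34.4% in tumours, against 31.6% and 31.6% in normal pancreas. Complex I thus took a smaller share in every tumour than in either normal library, by 4.22 percentage points on average, and complex V a larger share in every tumour, by 2.92 points.
Complex IV also held more in every tumour, at 23.3%, 24.2% and 23.3%, against 21.4% and 22.0% in normal pancreas. Complex II held 2.17%, 1.97% and 2.20% in tumours, against 2.32% and 2.50% in normal pancreas. The shares of complex III overlapped, at 12.6%, 12.2% and 12.2% in tumours, against 12.9% and 12.3% in normal pancreas. Shares sum to 100%, so a gain in some complexes is a loss in others, and they are described here without a test. With counts in place of TPM, complex III separated, at 10.6% to 11.0% in tumours, against 11.97% and 11.9% in normal pancreas, while complex II overlapped, at 5.36%, 4.71% and 5.09% in tumours, against 5.14% and 5.36% in normal pancreas.

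**Figure D3:**
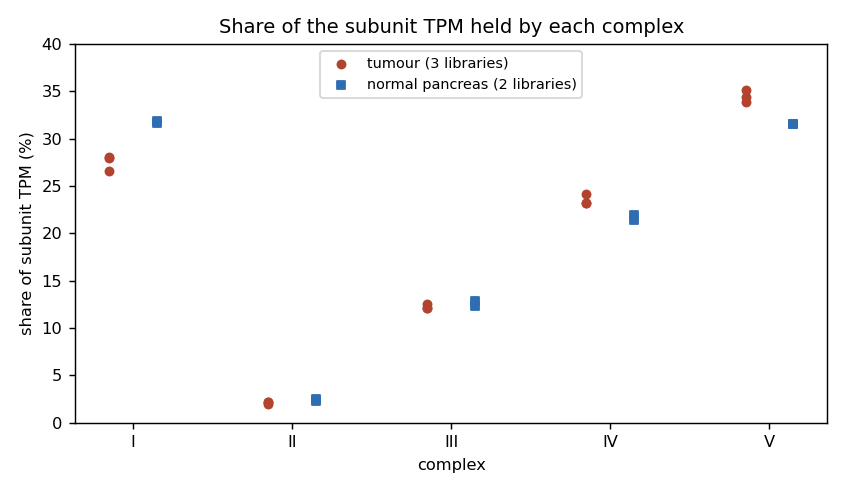
Share of the summed subunit TPM (vertical axis, percent) held by each complex (horizontal axis). Circles are the 3 tumours and squares the 2 normal pancreas libraries. Complex I lies lower in every tumour (26.6% to 28.1% against 31.7% and 31.8%), and complexes IV and V lie higher.

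Complex I carries 7 core subunits of the nuclear genome, which hold the flavin and the iron-sulfur clusters, and 29 accessory subunits that surround them. Under TMM scaling 5 of the core and 26 of the accessory subunits fell, where 27.8% of all genes tested fell. Ndufb9, an accessory subunit of the membrane arm at chr15:58933756-58939488 (GRCm38), had 32.6, 38.9 and 30.1 TPM in tumours 1, 2 and 3, against 69.1 and 57.2 TPM in normal pancreas. All tumours lay below both normal libraries, and the fall under TMM was the largest of the complex (log2 fold change -2.39, SE 0.16, edgeR adjusted p = 6.77e-05), with a log2 fold change of 0.79 under total counts.
Ndufb11, another accessory subunit of the membrane arm, had 22.7, 27.3 and 21.3 TPM in tumours 1, 2 and 3, against 39.5 and 36.1 TPM in normal pancreas, with every tumour again lower than both normal libraries (log2 fold change -2.14, SE 0.15, edgeR adjusted p = 8.64e-05). Ndufa3 had 27.1, 25.1 and 22.5 TPM in tumours 1, 2 and 3, against 46.7 and 39.9 TPM in normal pancreas (log2 fold change -2.09, SE 0.13, edgeR adjusted p = 5.81e-05), and Ndufa6 had 48.8, 50.4 and 37.6 TPM in tumours 1, 2 and 3, against 60.9 and 55.2 TPM in normal pancreas (log2 fold change -1.86, SE 0.12, edgeR adjusted p = 6.63e-05). In both, the groups did not overlap in TPM.
At the other end stood Ndufs1, the core subunit with the most iron-sulfur clusters, at chr1:63143596-63176833. Its level was 11.9, 11.1 and 10.8 TPM in tumours 1, 2 and 3, against 4.09 and 4.12 TPM in normal pancreas, so the tumours were higher in TPM, while under TMM the fold change was near 0 (log2 fold change -0.0099, SE 0.14, edgeR adjusted p = 0.955). Ndufab1, the mitochondrial acyl carrier protein, had 36.5, 39.7 and 33.5 TPM in tumours 1, 2 and 3, against 21.7 and 17.8 TPM in normal pancreas (log2 fold change -0.34, SE 0.14, edgeR adjusted p = 0.0703). Ndufb2 had 23.7, 27.8 and 27.1 TPM in tumours 1, 2 and 3, against 16.2 and 13.6 TPM in normal pancreas (log2 fold change -0.34, SE 0.18, edgeR adjusted p = 0.14). Both were higher in TPM in every tumour and did not pass the test under TMM. Ndufv1, the core subunit that oxidises NADH, had 16.9, 18.0 and 16.2 TPM in tumours 1, 2 and 3, against 13.5 and 12.7 TPM in normal pancreas (log2 fold change -1.42, SE 0.14, edgeR adjusted p = 0.00025), so it fell under TMM although its TPM were higher in every tumour. Ndufb4 may share reads with the processed pseudogene Ndufb4c, which had 78.8 to 207 counts in tumours, against 301 and 271 in normal pancreas, so its own fold change is uncertain. In normal pancreas Ndufb9 had the highest mean TPM of the complex, and in tumours Ndufa1 had, with 53.4, 70.1 and 69.3 TPM in tumours 1, 2 and 3, against 62.2 and 52.9 TPM in normal pancreas.

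Complex II has 4 subunits, of which Sdha holds the flavin that oxidises succinate, Sdhb carries the iron-sulfur clusters, and Sdhc and Sdhd anchor the enzyme in the membrane. Loss of these genes is known in human paraganglioma, a tumour of catecholamine-producing cells.
Sdhb (chr4:140961203-140979193) had 14.5, 17.5 and 14.8 TPM in tumours 1, 2 and 3, against 32.4 and 28.9 TPM in normal pancreas. Sdhd (chr9:50596357-50603812) had 21.1, 29.9 and 20.99 TPM in tumours 1, 2 and 3, against 12.1 and 10.6 TPM in normal pancreas. The groups were separate in both genes and in opposite order, Sdhb being lower and Sdhd higher in the TPM of every tumour.
Under TMM Sdhb fell (log2 fold change -2.43, SE 0.17, edgeR adjusted p = 7.19e-05) and Sdhd did not pass the test (log2 fold change -0.38, SE 0.20, edgeR adjusted p = 0.129). Under total counts both were higher in tumours, by a log2 fold change of 0.74 for Sdhb and a log2 fold change of 2.80 for Sdhd. The TPM ratio of Sdhb to Sdhd, which no scaling changes, was 0.686, 0.585 and 0.706 in tumours 1, 2 and 3, against 2.67 and 2.72 in normal pancreas. This pair was chosen after its values were seen, so the ratio is a description.
Sdha had 23.2, 19.4 and 22.2 TPM in tumours 1, 2 and 3, against 12.9 and 12.8 TPM in normal pancreas (log2 fold change -0.82, SE 0.15, edgeR adjusted p = 0.0035), and Sdhc had 9.38, 8.47 and 8.85 TPM in tumours 1, 2 and 3, against 10.9 and 11.2 TPM in normal pancreas (log2 fold change -1.24, SE 0.16, edgeR adjusted p = 0.000721). Both fell under TMM, but in TPM every tumour was higher for Sdha and lower for Sdhc. The summed TPM of the complex were 70.1 ± 4.51 in tumours (SD, n = 3) and 65.9 ± 3.39 in normal pancreas (SD, n = 2), so the sum did not show the shift among the subunits.

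**Figure D4:**
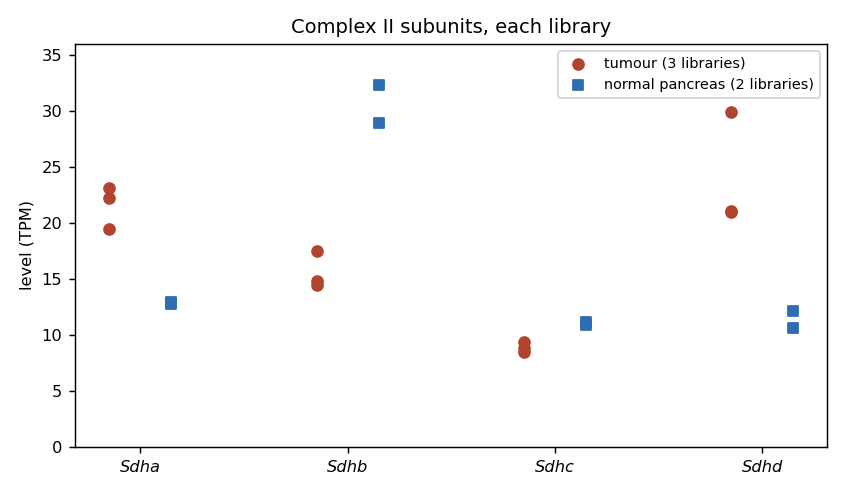
Level of the 4 complex II subunits (vertical axis, TPM) in each library. Circles are the 3 tumours and squares the 2 normal pancreas libraries. Sdhb lies lower in every tumour (14.5 to 17.5 against 28.9 and 32.4 TPM) and Sdhd higher (20.99 to 29.9 against 10.6 and 12.1 TPM).

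In complex III, the largest fall was that of Uqcrq, the small subunit next to the ubiquinone site, at chr11:53427922-53430831. It had 32.0, 36.9 and 27.2 TPM in tumours 1, 2 and 3, against 70.8 and 52.9 TPM in normal pancreas, and every tumour was lower (log2 fold change -2.42, SE 0.17, edgeR adjusted p = 7.79e-05; a log2 fold change of 0.75 under total counts). Uqcr11, the smallest subunit, had 104, 100.3 and 88.4 TPM in tumours 1, 2 and 3, against 62.9 and 50.5 TPM in normal pancreas (log2 fold change -0.74, SE 0.14, edgeR adjusted p = 0.00417). It had the highest mean TPM of the complex in tumours, and all tumours were above both normal libraries in TPM although it fell under TMM. The TPM ratio of Uqcrq to Uqcr11, a pair also chosen after its values were seen, was 0.308, 0.368 and 0.308 in tumours, against 1.13 and 1.05 in normal pancreas.
Cyc1, cytochrome c1, had 11.6, 16.9 and 13.8 TPM in tumours 1, 2 and 3, against 22.9 and 21.5 TPM in normal pancreas (log2 fold change -1.49, SE 0.19, edgeR adjusted p = 0.000751). Uqcrfs1, the Rieske iron-sulfur protein, had 18.8, 21.8 and 17.5 TPM in tumours 1, 2 and 3, against 16.5 and 17.3 TPM in normal pancreas (log2 fold change -1.26, SE 0.15, edgeR adjusted p = 0.000532) and was narrowly higher in the TPM of every tumour. Uqcrc1, a core structural subunit, had 22.8, 26.6 and 22.7 TPM in tumours 1, 2 and 3, against 21.5 and 19.0 TPM in normal pancreas (log2 fold change -1.21, SE 0.16, edgeR adjusted p = 0.0008). Uqcrh, the hinge protein beside cytochrome c1, had 89.5, 117 and 84.8 TPM in tumours 1, 2 and 3, against 95.6 and 78.6 TPM in normal pancreas (log2 fold change -1.32, SE 0.18, edgeR adjusted p = 0.000906), with overlapping TPM. All 4 fell under TMM and were higher in tumours under total counts. Uqcr10 was the only subunit of the complex that did not pass the test under TMM.

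Complex IV held both members that rose under TMM, and both are isoforms used in particular cells or conditions. Ndufa4l2, a relative of Ndufa4 that is a known target of the hypoxia-inducible factor, had 2.99, 2.90 and 2.78 TPM in tumours 1, 2 and 3, against 0.45 and 0.49 TPM in normal pancreas from 77, 75 and 39 (tumours) against 8 and 14 (normal pancreas) counts (log2 fold change 1.51, SE 0.41, edgeR adjusted p = 0.0165). Cox4i2, the isoform of Cox4i1 known from lung and oxygen-sensing cells, had 0.75, 0.58 and 0.27 TPM in tumours 1, 2 and 3, against 0.04 and 0.04 TPM in normal pancreas from 17, 12 and 3 (tumours) against 1 and 1 (normal pancreas) counts (log2 fold change 2.18, SE 0.74, edgeR adjusted p = 0.0372). Every tumour was higher in both genes, but Cox4i2 rested on 32 counts in all tumours and 2 in normal pancreas. Its ratio of counts per TMM-scaled library size was 5.07, tumour over normal pancreas, with a 95% exact binomial interval of 1.30 to 43.7 that covers counting error only. The call for Cox4i2 was lost in DESeq2 (log2 fold change 2.24, adjusted p = 0.163), in edgeR with no filter on low counts (adjusted p = 0.0789) or among protein-coding genes only (0.0515), and in edgeR without tumour 1 (adjusted p = 0.0600), tumour 2 (0.0522), normal library 1 (0.167) or normal library 2 (0.170). That for Ndufa4l2 was lost without normal library 1 (1.18, edgeR adjusted p = 0.0989).
Set against their broadly expressed partners in the same library, both stayed minor. Ndufa4l2 stood at 4.86, 4.13 and 5.49 per 100 TPM of Ndufa4 in tumours, against 1.09 and 1.45 in normal pancreas (two-sided exact permutation p = 0.1, the smallest that 3 against 2 libraries can give, and 0.3 after Benjamini-Hochberg adjustment over 9 ratios). Cox4i2 stood at 0.755, 0.479 and 0.256 per 100 TPM of Cox4i1 in tumours, against 0.0409 and 0.0471 in normal pancreas (exact permutation p = 0.2, adjusted 0.3). The groups did not overlap in either ratio.
Both genes are also known from pericytes, the cells that wrap small vessels. All 11 pericyte and smooth muscle markers of a list rose under TMM, where 39.2% of all genes tested rose. Their summed level was 353 to 470 CPM in tumours, against 42.6 and 55.8 CPM in normal pancreas, and none was at 0 in every library. Of 11 hypoxia and HIF target genes 3 rose and 4 fell under TMM, where 39.2% and 27.8% of all genes did. Their log2 fold changes ran from -3.78 for Ndrg1 (SE 0.14, edgeR adjusted p = 2.02e-05) to 2.12. Under total counts all 11 pericyte and smooth muscle markers and 9 of the 11 hypoxia genes were higher, where 93.3% of all genes were. The part of either list in the rise of Ndufa4l2 and Cox4i2 was not tested.
The isoforms typical of heart and skeletal muscle were near 0 in both tissues. Cox6a2 had 2, 5 and 0 (tumours) against 11 and 12 (normal pancreas) counts, Cox7a1 had 7, 3 and 1 (tumours) against 1 and 0 (normal pancreas) and Cox8b had 1, 1 and 0 (tumours) against 0 and 0 (normal pancreas). None of them was tested for lack of counts. Of 13 striated muscle markers 2 had counts enough to be tested, and both rose, Acta1 at 0.26, 0.21 and 0.12 TPM in tumours 1, 2 and 3, against 0 and 0 TPM in normal pancreas and Des at 2.0, 2.41 and 0.85 TPM in tumours 1, 2 and 3, against 0.2 and 0.22 TPM in normal pancreas. Cox6b2, the testis isoform of Cox6b1, had 6, 3 and 1 (tumours) against 3 and 1 (normal pancreas) counts.
Among the broadly expressed subunits, Cox6a1 and Cox5a showed the clearest falls. Cox6a1 had 49.9, 58.1 and 46.8 TPM in tumours 1, 2 and 3, against 74.5 and 62.6 TPM in normal pancreas (log2 fold change -1.91, SE 0.16, edgeR adjusted p = 0.000128), and Cox5a had 20.5, 26.6 and 21.4 TPM in tumours 1, 2 and 3, against 34.96 and 27.7 TPM in normal pancreas (log2 fold change -1.90, SE 0.19, edgeR adjusted p = 0.000261). Every tumour was below both normal libraries in each. Cox5b, which lies beside Cox5a on the matrix side of the enzyme, had 42.9, 58.7 and 42.2 TPM in tumours 1, 2 and 3, against 28.2 and 25.1 TPM in normal pancreas and did not pass the test (log2 fold change -0.39, SE 0.16, edgeR adjusted p = 0.0619). Its tumours were all higher in TPM. Cox4i1, the largest nuclear subunit, had 99.3, 121 and 105 TPM in tumours 1, 2 and 3, against 97.8 and 84.9 TPM in normal pancreas (log2 fold change -1.19, SE 0.18, edgeR adjusted p = 0.00143), with every tumour higher in TPM by a narrow margin. Cox7b had 37.0, 53.1 and 37.5 TPM in tumours 1, 2 and 3, against 34.1 and 44.8 TPM in normal pancreas (log2 fold change -1.32, SE 0.18, edgeR adjusted p = 0.00102), with overlapping groups in TPM. Cox8a had 98.4, 112 and 91.3 TPM in tumours 1, 2 and 3, against 56.5 and 54.0 TPM in normal pancreas (log2 fold change -0.65, SE 0.14, edgeR adjusted p = 0.0074) and Ndufa4 61.5, 70.2 and 50.6 TPM in tumours 1, 2 and 3, against 41.2 and 33.9 TPM in normal pancreas (log2 fold change -0.81, SE 0.17, edgeR adjusted p = 0.00564), and in these 2 the tumours were higher in TPM although both fell under TMM.

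In complex V, the catalytic head, the c ring and the stalk fell under TMM, while 2 small membrane subunits at the dimer interface did not pass the test. Atp5b, the catalytic beta subunit, was the most abundant member in both tissues, with 187, 236 and 184 TPM in tumours 1, 2 and 3, against 153 and 134 TPM in normal pancreas (log2 fold change -0.90, SE 0.23, edgeR adjusted p = 0.014). Atp5a1, the alpha subunit, had 79.1, 85.5 and 82.7 TPM in tumours 1, 2 and 3, against 50.2 and 46.7 TPM in normal pancreas (log2 fold change -0.64, SE 0.19, edgeR adjusted p = 0.0242). In both, every tumour was higher in TPM, and all 5 head subunits fell under TMM, where 27.8% of all genes tested fell. Atp5d, the delta subunit, had 38.6, 39.2 and 31.4 TPM in tumours 1, 2 and 3, against 32.9 and 32.1 TPM in normal pancreas (log2 fold change -1.29, SE 0.12, edgeR adjusted p = 0.000248), and Atp5j, coupling factor 6 of the peripheral stalk, had 40.2, 42.0 and 37.6 TPM in tumours 1, 2 and 3, against 39.4 and 35.8 TPM in normal pancreas (log2 fold change -1.54, SE 0.15, edgeR adjusted p = 0.000249). The groups overlapped in TPM in both.
Atp5o, the stalk subunit that confers oligomycin sensitivity, had the lowest fold change of the complex, with 27.2, 42.5 and 36.4 TPM in tumours 1, 2 and 3, against 56.9 and 45.9 TPM in normal pancreas (log2 fold change -2.03, SE 0.23, edgeR adjusted p = 0.00047). Every tumour was below both normal libraries. A second row with this symbol, at another locus, was at 0 counts in all libraries but normal pancreas 2, where it had 1.46 estimated counts, and was not tested.
Atp5md, a small subunit known for holding ATP synthase dimers together, lies at chr19:47083464-47090647. It had 84.5, 120.3 and 79.4 TPM in tumours 1, 2 and 3, against 28.9 and 27.1 TPM in normal pancreas and did not pass the test under TMM (log2 fold change 0.25, SE 0.20, edgeR adjusted p = 0.304), while in TPM every tumour was far above both normal libraries. Atp5l, subunit g of the same region, had 91.0, 145 and 121 TPM in tumours 1, 2 and 3, against 56.3 and 45.6 TPM in normal pancreas and did not pass either (log2 fold change -0.19, SE 0.23, edgeR adjusted p = 0.489). The TPM ratio of Atp5md to Atp5b, chosen after its values were seen, was 0.452, 0.511 and 0.433 in tumours, against 0.189 and 0.203 in normal pancreas.
The c ring is encoded by Atp5g1, Atp5g2 and Atp5g3, whose mature proteins are identical. All 3 fell under TMM, by 1.15, 1.30 and 1.74 on the log2 scale in that order. Atp5g3 gave 29.7%, 31.0% and 32.1% of their summed TPM in tumours, against 38.4% and 38.0% in normal pancreas (exact permutation p = 0.1, adjusted 0.3). Atp5g1 gave 42.7%, 37.7% and 39.5% in tumours, against 35.2% and 34.96% in normal pancreas (exact permutation p = 0.2, adjusted 0.3). Every tumour had less Atp5g3 and more Atp5g1 in the mixture than either normal library.

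The Ndufaf assembly factors were scarce beside the subunits, with a summed level of 25.2 ± 4.22 TPM in tumours (SD, n = 3) and 16.6 ± 1.0 TPM in normal pancreas (SD, n = 2). Ndufaf8 had 3.67, 4.49 and 2.73 TPM in tumours 1, 2 and 3, against 5.66 and 5.89 TPM in normal pancreas (log2 fold change -2.09, SE 0.25, edgeR adjusted p = 0.000594), and every tumour was lower. Ndufaf3 had 2.82, 1.80 and 2.29 TPM in tumours 1, 2 and 3, against 2.21 and 1.42 TPM in normal pancreas (log2 fold change -1.26, SE 0.28, edgeR adjusted p = 0.00702), with overlapping groups in TPM. Ndufaf1 had 3.23, 3.37 and 2.05 TPM in tumours 1, 2 and 3, against 2.01 and 1.55 TPM in normal pancreas (log2 fold change -0.92, SE 0.24, edgeR adjusted p = 0.0132). These 3 fell under TMM, and the other 5 did not pass the test. Ndufaf6, which acts early in assembly, had 1.33, 3.31 and 1.73 TPM in tumours 1, 2 and 3, against 0.75 and 0.52 TPM in normal pancreas from 36, 77 and 28 (tumours) against 18 and 13 (normal pancreas) counts, with its tumours all higher in TPM.

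To compare members with each other, the libraries were also scaled on the subunits themselves, so that the median subunit sits at 0 by construction and falls and rises balance. With the members thus set against the median subunit, 24 members were higher, where 66.9% of all genes were, and 18 were lower, where 8.64% of all genes were. By complex, higher and lower members were 8 and 11 in complex I, 1 and 1 in complex II, 2 and 1 in complex III, 5 and 2 in complex IV, 4 and 2 in complex V, and 4 and 1 among the assembly factors. The lowest were Sdhb (-1.22, SE 0.15, edgeR adjusted p = 0.000465), Uqcrq (-1.20, SE 0.16, edgeR adjusted p = 0.000546), Ndufb9 (-1.17, SE 0.15, edgeR adjusted p = 0.000555) and Ndufb11 (-0.92, SE 0.15, edgeR adjusted p = 0.00155). Among the others that were lower were Ndufs6, an accessory subunit of complex I (-0.87, SE 0.19, edgeR adjusted p = 0.00437), and Ndufa13, known also as Grim19 (-0.79, SE 0.16, edgeR adjusted p = 0.00354).
The highest were Cox4i2 (3.35, SE 0.80, edgeR adjusted p = 0.00723) and Ndufa4l2 (2.71, SE 0.45, edgeR adjusted p = 0.00151), followed among the broadly expressed subunits by Atp5md (1.45, SE 0.19, edgeR adjusted p = 0.000516), Ndufs1 (1.21, SE 0.18, edgeR adjusted p = 0.000866) and Atp5l (1.01, SE 0.19, edgeR adjusted p = 0.00275). Ndufab1 (0.88, SE 0.17, edgeR adjusted p = 0.00273), Ndufb2 (0.87, SE 0.18, edgeR adjusted p = 0.00359), Sdhd (0.83, SE 0.18, edgeR adjusted p = 0.00429) and Cox5b (0.82, SE 0.16, edgeR adjusted p = 0.00336) were higher as well. The subunits of a complex thus differed among themselves, and the standard deviation of the TMM log2 fold changes was 0.60 within complex I, 0.88 within complex II, 0.54 within complex III, 1.15 within complex IV and 0.57 within complex V. The median standard error of a gene in these complexes was 0.16 to 0.19. The value of complex IV includes the minor isoforms Cox4i2 and Ndufa4l2, the only members that rose under TMM, and Cox4i2 rested on few counts. Over all genes tested the spread was wider, with TMM quartiles of -0.79 and 2.18, against -1.50 and -0.66 for the members.
Of the 42 members called, 41 kept their direction in all 8 further fits, which left out each library, summed tumours 1 and 2, removed the length trend or used DESeq2. These members were picked by the first fit and the further fits reuse its libraries, so most directions would be kept in any case. The share of all genes that kept theirs was not counted. Atp5a1 changed sign when the length trend was removed. Only 12 kept the call in all 8: Sdhb, Uqcrq, Ndufb9, Ndufb11 and Ndufa13 lower, and Ndufa4l2, Atp5md, Atp5l, Ndufab1, Ndufb2, Sdhd and Cox5b higher. Ndufs1 stood at 0.45 without the length trend (edgeR adjusted p = 0.0788). Without normal library 1, 9 members were higher and 6 lower, where 49.1% and 5.96% of all genes were, and without normal library 2, 8 were higher and 11 lower, where 51.8% and 5.63% were.

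**Figure D5:**
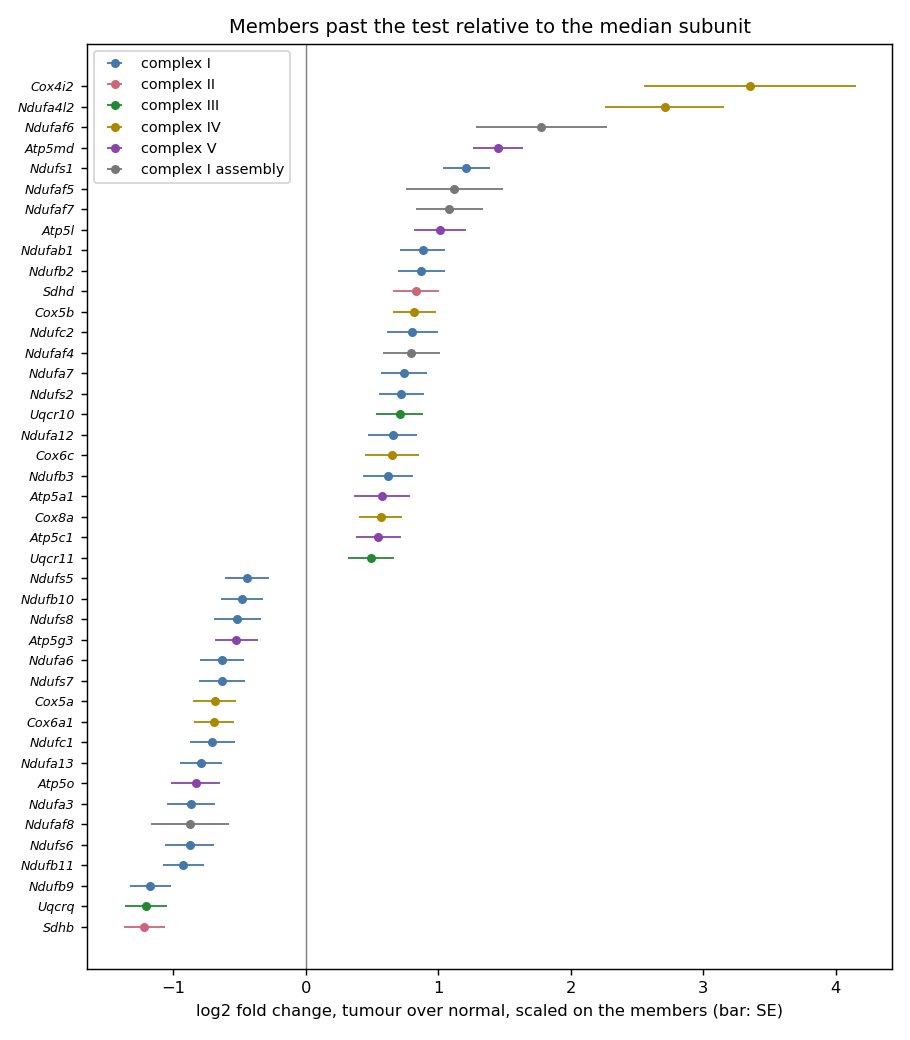
Members that passed edgeR's test when libraries were scaled on the subunits themselves. Points are log2 fold changes, tumour over normal pancreas (horizontal axis), relative to the median subunit, bars are standard errors, and colours mark the complex. Complex II appears on both sides of the median subunit, with Sdhb at -1.22 and Sdhd at 0.83.

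The promoters of members called lower or higher than the median subunit are shown with motifs of factors known to bind such promoters. RefSeq windows of 250 bases before to 50 after the gene start (GRCm38.p6) were found for 76 of 94 symbols, in 81 windows. The motifs searched on both strands were YY1 (AAGATGGC), NRF1 (GCGCATGC), ERR (CAAGGTCA), the ETS motif (CCGGAAGT) and the E-box bound by MYC and MAX (CACGTG), and none of these letter strings contains another. The 5 windows printed were chosen after the values were seen: Sdhb and Sdhd as the split pair of complex II, Ndufs6 and Cox6a1 as subunits low relative to the median subunit, and Atp5l as one high relative to it. The motif letters were also chosen after the values were seen, and the NRF1 string was shortened after a longer form had been counted. Motif letters are in capitals, and the sequences run 5′ to 3′ on the strand of the gene.
Sdhb (chr4:140961021-140961320, strand +, motif NRF1): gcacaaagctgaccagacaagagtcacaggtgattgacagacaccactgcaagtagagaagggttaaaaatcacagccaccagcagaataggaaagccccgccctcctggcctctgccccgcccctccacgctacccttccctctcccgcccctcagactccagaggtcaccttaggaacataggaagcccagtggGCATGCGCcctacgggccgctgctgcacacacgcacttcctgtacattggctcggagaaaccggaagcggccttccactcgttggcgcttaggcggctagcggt
Sdhd (chr9:50603800-50604099, strand -, motif ERR): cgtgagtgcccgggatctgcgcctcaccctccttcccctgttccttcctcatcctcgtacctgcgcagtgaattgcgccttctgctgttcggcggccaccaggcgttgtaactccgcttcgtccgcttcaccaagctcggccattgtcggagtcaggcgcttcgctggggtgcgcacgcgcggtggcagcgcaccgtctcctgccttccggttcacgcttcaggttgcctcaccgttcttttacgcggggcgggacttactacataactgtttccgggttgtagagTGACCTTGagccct
Ndufs6 (chr13:73328433-73328732, strand -, motif YY1): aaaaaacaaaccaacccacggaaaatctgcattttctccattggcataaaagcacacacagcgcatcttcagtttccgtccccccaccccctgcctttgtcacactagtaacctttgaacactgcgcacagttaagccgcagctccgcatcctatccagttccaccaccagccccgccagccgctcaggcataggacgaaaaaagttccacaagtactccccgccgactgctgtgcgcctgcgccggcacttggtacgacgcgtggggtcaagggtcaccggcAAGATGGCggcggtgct
Cox6a1 (chr5:115348909-115349208, strand -, motif NRF1): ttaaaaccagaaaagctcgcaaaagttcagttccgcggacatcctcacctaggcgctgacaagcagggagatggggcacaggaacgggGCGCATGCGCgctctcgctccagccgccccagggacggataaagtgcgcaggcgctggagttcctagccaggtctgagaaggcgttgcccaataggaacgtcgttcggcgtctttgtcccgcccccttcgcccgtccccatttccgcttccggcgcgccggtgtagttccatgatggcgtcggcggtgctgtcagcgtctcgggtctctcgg
Atp5l (chr9:44920693-44920992, strand -, motif E-box and ERR and NRF1): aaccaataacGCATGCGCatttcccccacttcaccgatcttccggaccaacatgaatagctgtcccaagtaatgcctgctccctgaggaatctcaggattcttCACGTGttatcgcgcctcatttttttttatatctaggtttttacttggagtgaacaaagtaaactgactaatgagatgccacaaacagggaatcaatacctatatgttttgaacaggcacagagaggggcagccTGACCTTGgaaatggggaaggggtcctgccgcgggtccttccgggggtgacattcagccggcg

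Among member windows 13.6% held the YY1 letters, against 2.75% of all 32851 windows, and 14.8% held the NRF1 letters, against 2.71% of all. The ERR letters were in 4.94% against 1.56%, the ETS letters in 6.17% against 3.89%, and the E-box in 8.64% against 7.15%. Relative to the median subunit, where 24 of the 88 tested members were called higher and 18 lower, none of the 11 members with YY1 letters was called higher and 5 were called lower, Ndufa3, Ndufaf8, Ndufc1, Ndufs6 and Ndufs7. Of the 12 with NRF1 letters 4 were called higher and 3 lower, of the 6 with an E-box 2 and 1, of the 5 with ETS letters 2 and 0, and of the 4 with ERR letters 2 and 2. These counts are a description without a test. A match is a description of the letters in this window and not a binding site.

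Genes that serve the same complexes from outside the subunit list were described by list, and the lists differed in how many of their genes passed the test. For all genes tested the shares were 39.2% higher and 27.8% lower under TMM, and 93.3% higher and 2.37% lower under total counts. Of 42 tested assembly factors, a list for all complexes that holds none of the Ndufaf genes above, 27 fell and 2 rose under TMM (median log2 fold change -0.72), and 41 were higher under total counts. The largest of these rises was that of Ttc19, an assembly factor of complex III, with 3.72, 4.32 and 3.77 TPM in tumours 1, 2 and 3, against 0.43 and 0.5 TPM in normal pancreas (log2 fold change 2.07, SE 0.20, edgeR adjusted p = 0.000239), and Coa3, an assembly factor of complex IV, had 19.7, 26.7 and 20.1 TPM in tumours 1, 2 and 3, against 43.7 and 32.7 TPM in normal pancreas (log2 fold change -2.12, SE 0.17, edgeR adjusted p = 0.000133). Of 19 tested electron carriers and enzymes of coenzyme Q synthesis 9 fell and 1 rose, and 18 were higher under total counts. Coq8a, a kinase-like protein of coenzyme Q synthesis, had 3.64, 5.42 and 3.33 TPM in tumours 1, 2 and 3, against 17.2 and 18.7 TPM in normal pancreas (log2 fold change -3.73, SE 0.20, edgeR adjusted p = 3.44e-05), and Etfa and Etfb, the electron-transferring flavoprotein, fell as well (log2 fold change -2.49, SE 0.14, edgeR adjusted p = 4.24e-05, and log2 fold change -2.22, SE 0.15, edgeR adjusted p = 7.24e-05).
Of 19 regulators of mitochondrial gene expression 3 rose and 4 fell, and 17 were higher under total counts. Lrpprc, which stabilises mitochondrial mRNA, had 6.5, 7.52 and 5.83 TPM in tumours 1, 2 and 3, against 1.11 and 0.93 TPM in normal pancreas and rose (log2 fold change 1.33, SE 0.17, edgeR adjusted p = 0.000783), Tfb1m, an rRNA methyltransferase of mitochondria, had 1.16, 1.08 and 1.0 TPM in tumours 1, 2 and 3, against 2.78 and 2.53 TPM in normal pancreas and fell (log2 fold change -2.57, SE 0.21, edgeR adjusted p = 0.000132), and Gabpa, the ETS factor also called NRF2, fell less (log2 fold change -0.57, SE 0.13, edgeR adjusted p = 0.00834). Of the 13 subunits encoded by mitochondrial DNA 9 fell and 1 rose under TMM, and under total counts 3 were lower and 5 higher. Their median was -2.76 under TMM, beside -1.20 for the nuclear members. Their summed level was 4763 to 5396 TPM in tumours, against 10820 and 10320 TPM in normal pancreas.
Ribosomal protein genes served as a further yardstick. Of 78 tested genes for mitochondrial ribosomal proteins 58 fell and 3 rose (median -0.99), and of 80 tested genes for cytosolic ribosomal proteins 78 fell and none rose (median -1.30), whereas under total counts 77 and 79 of them were higher. The median of the oxidative phosphorylation members, -1.20, lay between these 2. When libraries were scaled on the mitochondrial ribosomal genes instead, 16 members were higher, where 61.5% of all genes were, and 23 were lower, where 10.4% were.

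Markers of other cell types were uneven, beside 39.2% of all genes tested that rose under TMM and 27.8% that fell. Under TMM 5 of 8 endothelial markers rose and 1 fell (summed level 123 to 149 CPM in tumours, against 83.7 and 109.8 CPM in normal pancreas), 3 of 6 fibroblast markers rose and 2 fell, 1 of 6 leukocyte markers rose, 1 of 6 duct markers rose and 3 fell, and 2 of 7 adipocyte markers rose and 1 fell. Their part in the levels of the members was not tested.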

How the data were processed

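RNA of 3 tumours and 2 normal pancreases was sequenced. The submitters' processing notes name RSEM 1.31, STAR 2.7 and Trim Galore 0.60, and the builds mm10 and GRCm38. The sources used here do not give strandedness, settings or the annotation, so reads of a gene and an antisense partner cannot be told apart. The authors deposited RSEM estimated counts (expected counts), which need not be whole, and TPM, which divide counts by effective length and are scaled to the same total in each library. The effective length, a value in bases of another kind, comes from the per-library files the authors deposited. Series and per-library tables agreed (largest difference 0), and 92 spike-in rows were left out.

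Rounded counts went through edgeR 4.0.16 under R 4.3.3 (glmQLFTest, TMM, filterByExpr defaults, Benjamini-Hochberg over 16810 genes, adjusted p under 0.05). Log2 fold changes are tumour over normal pancreas. SE is the absolute log2 fold change over the square root of F. The fit was tested on simulated data, where it missed most of the smaller changes set. Scaling on the members used the median of ratios over 81 subunits. Alternatives used DESeq2 1.42.0, limma 3.58.1, other scalings, filters, a lowess trend on length, and each library left out. Replicate pairs differed beyond sampling noise (chi-square per degree of freedom 27.3 to 59.0). Coordinates are GENCODE M21 on GRCm38, which holds all 95 identifiers.

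Named members were those with the 4 smallest p and the highest TPM in each complex, isoform pairs, core subunits, up to 8 in each direction relative to the members, 3 assembly factors and up to 3 genes of each other list; others were named after their values were seen. The members, lists and rules were chosen with earlier results of these data known.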

Additional observations from a re-analysis of the deposited data

How the results depend on the processing

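The direction of the members rested on the library scaling. The distance of their median to that of all genes was -1.58 under TMM and total counts and -0.72 with the length trend removed. It was -0.39 in limma on log2(TPM + 1) and -1.15 on log2(TPM + 0.1). Among protein-coding genes only it was -1.38, and with no filter on low counts -2.19, so it also depended on the genes compared. The number of members that rose or fell was 88 and 0 under total counts, 2 and 66 under upper-quartile scaling, 2 and 69 under RLE scaling, 16 and 23 when scaled on mitochondrial ribosomal protein genes, 24 and 18 on the members, and 4 and 54 on protein-coding counts outside the acinar markers. It was 1 and 69 in DESeq2, 34 and 9 in limma on log2(TPM + 1), 33 and 9 on log2(TPM + 0.1), 1 and 67 with no filter on low counts, 1 and 68 among protein-coding genes only, 8 and 51 with the length trend removed, and 2 and 77 with tumours 1 and 2 summed. Leaving out a library gave 0 to 2 and 55 to 76. The cause of these differences was not tested. In the alternatives whose share of all genes is not given in the results above, 25.5% to 68.8% of all genes were called higher and 7.09% to 30.2% lower. No paired analysis was possible because the labels give no numbers that tie a tumour to a normal pancreas.

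By complex, the numbers that rose and fell under total counts were 36 and 0 (I), 4 and 0 (II), 9 and 0 (III), 14 and 0 (IV), 17 and 0 (V) and 8 and 0 (assembly factors). On mitochondrial ribosomal genes they were 6 and 13, 1 and 1, 1 and 2, 3 and 2, 2 and 4, and 3 and 1 in the same order, and on the members 8 and 11, 1 and 1, 2 and 1, 5 and 2, 4 and 2, and 4 and 1. In limma on log2(TPM + 1) they were 12 and 5, 2 and 1, 3 and 2, 7 and 0, 5 and 0, and 5 and 1, and with 0.1 added 11 and 5, 2 and 1, 3 and 2, 7 and 0, 5 and 0, and 5 and 1. With the length trend removed they were 3 and 22, 0 and 3, 1 and 7, 2 and 6, 2 and 11, and 0 and 2. On protein-coding counts outside the acinar markers they were 1 and 25, 0 and 3, 0 and 7, 2 and 6, 1 and 11, and 0 and 2. In DESeq2, with no filter and among protein-coding genes, 1 of complex IV rose and no other member did, beside 69, 67 and 68 falls in all. Counting Ndufa4 and Ndufa4l2 with complex I gave 1 rise each in complexes I and IV. Of all genes tested, 93.3% rose and 2.37% fell under total counts, 61.5% and 10.4% on mitochondrial ribosomal genes, and 66.9% and 8.64% on the members. In limma these shares were 63.4% and 6.98% with 1 added and 68.8% and 7.09% with 0.1. They were 35.3% and 29.2% without the length trend and 48.7% and 18.9% outside the acinar markers. DESeq2 gave 38.7% and 27.3%, no filter 25.5% and 17.8%, and protein-coding genes 35.9% and 30.2%.

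Leaving out a tumour gave falls of 28 to 32 in complex I, 3 to 4 in II, 8 to 9 in III and 10 to 12 in IV. It gave falls of 15 in V and 3 to 4 among assembly factors. Rises were 1 to 2 in IV and 0 elsewhere. Of all genes tested, 37.2% to 39.0% rose and 24.9% to 28.6% fell in these fits. Falls in complexes I, IV and V were fewer without a normal library. Relative to the median subunit, leaving out a tumour gave 19 to 26 higher and 14 to 17 lower members. Of all genes, 64.7% to 65.6% were higher and 7.56% to 10.9% lower there. Fewer members were called in both directions without a normal library. These fits on the members were chosen after seeing the data. Without a normal library, the lone sample left is assumed to vary like the tumours. As a share of subunit counts in place of TPM, complex II differed by -0.20 percentage points, tumour minus normal, complex III by -1.06, complex IV by 1.09 and complex V by 3.56.

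With total counts alone, the log2 fold changes of 43 named members were above 0 in place of below it: Ndufa1 1.78, Ndufa13 1.16, Ndufa3 1.08, Ndufa6 1.32, Ndufab1 2.83, Ndufb11 1.04, Ndufb2 2.83, Ndufb9 0.79, Ndufs6 1.09, Ndufs1 3.16, Ndufv1 1.75, Sdha 2.34, Sdhb 0.74, Sdhc 1.93, Sdhd 2.80, Cyc1 1.69, Uqcrfs1 1.92, Uqcr11 2.44, Uqcrb 1.82, Uqcrc1 1.97, Uqcrh 1.86, Uqcrq 0.75, Cox4i1 1.98, Cox5a 1.27, Cox5b 2.79, Cox6a1 1.26, Cox6b1 1.94, Cox7a2 2.21, Cox7b 1.85, Cox8a 2.53, Ndufa4 2.37, Atp5g1 2.02, Atp5g2 1.87, Atp5g3 1.43, Atp5a1 2.53, Atp5b 2.27, Atp5d 1.89, Atp5e 1.80, Atp5j 1.63, Atp5l 2.98, Ndufaf1 2.26, Ndufaf3 1.91 and Ndufaf8 1.09. In limma on log2(TPM + 1) the sign of 28 named members changed: Ndufa1 0.15, Ndufab1 0.86, Ndufb2 0.77, Ndufs1 1.26, Ndufv1 0.36, Sdha 0.70, Sdhd 0.997, Uqcrfs1 0.18, Uqcr11 0.78, Uqcrb 0.15, Uqcrc1 0.23, Uqcrh 0.15, Cox4i1 0.25, Cox5b 0.81, Cox7a2 0.48, Cox7b 0.10, Cox8a 0.85, Ndufa4 0.67, Atp5g1 0.22, Atp5g2 0.15, Atp5a1 0.76, Atp5b 0.48, Atp5d 0.15, Atp5e 0.15, Atp5j 0.084, Atp5l 1.19, Ndufaf1 0.47 and Ndufaf3 0.23. With a pseudocount of 0.1 the same test changed the sign of 28: Ndufa1 0.15, Ndufab1 0.89, Ndufb2 0.81, Ndufs1 1.43, Ndufv1 0.38, Sdha 0.74, Sdhd 1.05, Uqcrfs1 0.19, Uqcr11 0.79, Uqcrb 0.15, Uqcrc1 0.24, Uqcrh 0.15, Cox4i1 0.25, Cox5b 0.83, Cox7a2 0.49, Cox7b 0.10, Cox8a 0.86, Ndufa4 0.69, Atp5g1 0.22, Atp5g2 0.16, Atp5a1 0.77, Atp5b 0.49, Atp5d 0.16, Atp5e 0.16, Atp5j 0.086, Atp5l 1.204, Ndufaf1 0.65 and Ndufaf3 0.34. With scaling on the members the sign of 17 changed: Ndufab1 0.88, Ndufb2 0.87, Ndufs1 1.21, Sdha 0.40, Sdhd 0.83, Uqcr11 0.49, Uqcrc1 0.0075, Cox4i1 0.022, Cox5b 0.82, Cox7a2 0.24, Cox8a 0.57, Ndufa4 0.41, Atp5g1 0.072, Atp5a1 0.58, Atp5b 0.31, Atp5l 1.01 and Ndufaf1 0.31. With scaling on the mitochondrial ribosomal protein genes the sign of 14 changed: Ndufab1 0.68, Ndufb2 0.67, Ndufs1 1.02, Sdha 0.21, Sdhd 0.63, Uqcr11 0.29, Cox5b 0.62, Cox7a2 0.035, Cox8a 0.37, Ndufa4 0.20, Atp5a1 0.38, Atp5b 0.11, Atp5l 0.81 and Ndufaf1 0.097. With the length trend removed the sign of 8 changed: Ndufab1 0.50, Ndufb2 0.49, Sdhd 0.027, Uqcr11 0.21, Cox5b 0.39, Cox8a 0.20, Ndufa4 0.011 and Atp5l 0.65. With scaling on protein-coding counts outside the acinar markers the sign of 6 changed: Ndufab1 0.11, Ndufb2 0.11, Ndufs1 0.44, Sdhd 0.082, Cox5b 0.064 and Atp5l 0.27. Ndufs1, near 0 under TMM, was at 0.12 with upper-quartile scaling, 0.042 with no filter, 0.029 among protein-coding genes and 0.037 with tumours 1 and 2 summed. Leaving out a library gave -0.066 to 0.047 for Ndufs1 and -0.29 to 0.0062 for Atp5l.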
